A study of Arabidopsis thaliana with 58 samples.

Results

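The nuclear genes of the minor antenna of photosystem II and of the antenna of photosystem I were followed through Mg deficiency in Arabidopsis thaliana. The 10 genes were taken by locus from a list; the rule names loci and sets no threshold on their values: 5 of the minor photosystem II antenna, namely LHCB4.1 (AT5G01530), LHCB4.2 (AT3G08940), LHCB4.3 (AT2G40100), LHCB5 (AT4G10340) and LHCB6 (AT1G15820), and 5 of the photosystem I antenna, namely LHCA1 (AT3G54890), LHCA2 (AT3G61470), LHCA3 (AT1G61520), LHCA4 (AT3G47470) and LHCA6 (AT1G19150). They are 10 of the 23898 genes present in at least 1 table. All 10 were present in each of the 6 leaf tables, and 9 in the root table, in which LHCB4.3 was not listed. Plants of the ecotype Columbia-0 were grown in hydroponics with 1.5 mM Mg for 10 days after germination, and were then either kept at 1.5 mM Mg (control) or moved to a solution with 0 mM Mg (Mg-deficient). The latter held 1.5 mM sodium sulfate in place of magnesium sulfate, so that sodium was higher as well. RNA was sequenced from mature leaves (the first pair of leaves) and from leaves still expanding after 3, 5 and 8 days of treatment, when plants were 13, 15 and 18 days old, and from roots on day 3. Each library was a composite of 2 or 3 plants, and 58 libraries in 7 tables were used. The control libraries of mature leaves numbered 4, 5 and 4 on the 3 days and the Mg-deficient ones 3, 3 and 4. For expanding leaves these numbers were 5, 5 and 4 for control and 4, 3 and 5 for Mg-deficient plants, and roots gave 6 control and 3 Mg-deficient libraries.

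The proteins of these genes bind chlorophyll and carotenoids in the thylakoid membrane of the chloroplast. LHCB4 (the antenna protein CP29), LHCB5 (CP26) and LHCB6 (CP24) are single proteins that lie between the core of photosystem II and the LHCII trimers, and pass excitation energy from the trimers to the core. LHCA1 to LHCA4 form a belt on one side of photosystem I, and LHCA6 is a scarce relative that links photosystem I to the chloroplast NADH dehydrogenase-like complex. All are made in the cytosol from nuclear genes that respond to light and to the state of the plastid, are carried into the chloroplast and are inserted into the thylakoid, where each molecule of chlorophyll they bind holds an Mg atom.

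The stretches upstream of 4 of the genes are shown because these genes carry the contrasts described below: LHCB6 and LHCA4 changed in opposite directions on the same day, LHCA6 had the deepest fall, and LHCB4.1 stands for the minor photosystem II antenna. Sequences and positions come from RefSeq annotation of TAIR10.1, whereas the authors mapped to TAIR10. Each stretch is the 250 bases that end just before the annotated gene start, 5′ to 3′ on the strand of the gene. Capitals mark CACGTG (G-box), GATAAG (I-box) and CCAAT, searched on both strands, so that CCAAT can read ATTGG and GATAAG can read CTTATC. The window of LHCB6 is chr1:5447881-5448130 on the minus strand, that of LHCA4 chr3:17495034-17495283 on the minus strand, that of LHCA6 chr1:6612380-6612629 on the plus strand and that of LHCB4.1 chr5:208616-208865 on the plus strand.
LHCB6: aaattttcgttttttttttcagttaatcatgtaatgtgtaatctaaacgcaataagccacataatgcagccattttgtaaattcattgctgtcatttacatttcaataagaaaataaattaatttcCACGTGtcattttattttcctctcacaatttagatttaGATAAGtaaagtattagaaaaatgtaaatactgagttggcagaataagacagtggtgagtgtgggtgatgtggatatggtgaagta
LHCA4: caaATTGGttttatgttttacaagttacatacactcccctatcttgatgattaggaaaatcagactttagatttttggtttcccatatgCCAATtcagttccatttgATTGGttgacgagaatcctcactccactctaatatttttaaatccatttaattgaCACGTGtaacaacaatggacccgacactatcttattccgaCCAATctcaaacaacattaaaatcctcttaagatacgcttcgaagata
LHCA6: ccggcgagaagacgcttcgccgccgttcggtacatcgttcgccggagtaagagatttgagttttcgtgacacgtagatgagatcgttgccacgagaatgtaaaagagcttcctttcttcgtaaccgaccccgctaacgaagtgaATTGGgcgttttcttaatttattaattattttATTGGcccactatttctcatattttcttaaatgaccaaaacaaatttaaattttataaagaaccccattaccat
LHCB4.1: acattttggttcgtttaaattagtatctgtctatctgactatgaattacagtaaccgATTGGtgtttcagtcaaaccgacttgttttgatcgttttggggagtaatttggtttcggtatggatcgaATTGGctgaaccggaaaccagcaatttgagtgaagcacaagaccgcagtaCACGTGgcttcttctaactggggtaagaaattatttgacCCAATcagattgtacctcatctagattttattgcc
A G-box, the core site of light- and stress-related bZIP and bHLH factors, was found in 3 of the 10 windows (LHCB4.1, LHCB6 and LHCA4), against 6.49% of 27443 windows of the same length over all genes. An I-box was found in 3 (LHCB4.2, LHCB6 and LHCA1), against 12.3% of all windows, and CCAAT in 9, against 46.0%. LHCB6 was the window without a CCAAT and the one with both a G-box, 124 bases before the gene start, and an I-box, 86 bases before it. The G-box of LHCA4 lay 88 bases and that of LHCB4.1 74 bases before the start, and the window of LHCA6 held 2 CCAAT matches and no G-box or I-box. These matches are a description of letters and not of binding. The genes themselves lie at chr1:5446462-5447880 (minus strand), chr3:17493343-17495033 (minus strand), chr1:6612630-6613972 (plus strand) and chr5:208866-210548 (plus strand), with 2, 4, 3 and 2 exons. LHCB6, LHCA4 and LHCB4.2 overlap annotated genes on the opposite strand. The libraries keep strand, but whether the counting used it is not given in the sources used here.

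The unit of the tables is a normalised read count, here called signal: a count adjusted by the authors to a library size common to 1 table. Tables were adjusted separately, so that signals were compared within a table and fold changes between tables. Undoing the adjustment gave 545998 to 4016747 reads per library (median 1964031). Some libraries stood apart in the number of genes with at least 1 read. In mature leaves on day 8, control libraries 2, 3 and 4 held 7907, 6908 and 9697 such genes against 15173 in control library 1, and Mg-deficient library 1 of expanding leaves on day 5 held 12656 against 16654 and 15948 in the other two. On day 8 such genes numbered 12275 to 15172 per control library of expanding leaves, against 18422 to 18718 per Mg-deficient library. The median log2 fold change of all genes tested was -0.34 on day 5 and 0.63 on day 8 for expanding leaves and 0.91 on day 8 for mature leaves, and was between -0.04 and 0.03 in the other 4 tables. Scaling by the median of ratios moved these 3 medians to -0.03, 0.01 and -0.80. The share of calls that were higher moved from 48.1 to 58.9%, from 67.3 to 47.4% and from 95.2 to 15.9%. Directions in mature leaves on day 8 thus depended on the scaling. This scaling used all genes with a signal above 0 in every library of a table. Such a gene can lack reads: LHCB4.3 had signals of 1.76 and 2.02 from 0 reads in control libraries 2 and 3 of mature leaves on day 8. In that table the scaling left the median away from 0, so its results there are uncertain.

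In control plants the 10 genes spanned a wide range of levels. On the RPKM scale (reads corrected for spliced length and for the depth of the library), control expanding leaves on day 3 held LHCB6 at 1785 ± 124 (SD, n = 5) and LHCA4 at 1212 ± 87.0. LHCA2 (897 ± 68.6), LHCA3 (876 ± 85.6), LHCB4.1 (839 ± 198) and LHCB5 (759 ± 45.3) followed, and the ranges of neighbours among these 4 overlapped. LHCA1 had 550.4 ± 39.0, LHCB4.2 had 238 ± 51.7, LHCA6 had 136 ± 22.4 and LHCB4.3 had 31.2 ± 11.9, and no 2 neighbours in this lower part of the order overlapped. Together the 10 genes took 0.955 ± 0.0696% of the reads of these libraries. In roots the share was 0.00323 ± 0.00180% (SD, n = 6 control libraries).

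At day 3 of treatment in expanding leaves, 0 of the 10 genes passed limma's test at a Benjamini-Hochberg adjusted p under 0.05, where 0.0589% of the 15272 genes tested were called lower and 0.17% higher. At an unadjusted p under 0.05, 2 genes were lower, LHCB6 and LHCA4 (3.44% of all genes), and voom called LHCB6. LHCB6 had signals of 4064, 4278, 3957, 4542 and 4461 in control plants and 3027, 3438, 2812 and 2165 in Mg-deficient plants (-0.59 ± 0.14 SE in log2, adjusted p = 0.12). LHCA4 had 3273, 3236, 3111, 3145 and 2789.7 in control plants and 2209, 2144, 1736 and 2757 in Mg-deficient plants (-0.51 ± 0.14 SE in log2, adjusted p = 0.23). For both genes the groups were fully apart, as for 1.13% of all genes in this direction. Both passed when libraries were weighted by quality (adjusted p = 0.024 for LHCB6, 0.022 for LHCA4). LHCB6 also passed under voom (0.043), and LHCA4 when Mg-deficient library 4 was left out (0.032). The other 8 genes had log2 fold changes from -0.29 (LHCA1) to 0.35 (LHCB4.3), and their groups overlapped.

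In expanding leaves on day 5, 4 members were called lower and 1 higher. LHCB4.1, LHCB4.2, LHCB6 and LHCA6 fell to between 0.27 and 0.37 of the control level, and LHCA4 rose to 1.94 times the control level. By count, 4 of 10 genes were called lower, where 14.8% of the 15570 genes tested were, and 1 of 10 was called higher, where 13.7% were. The share called higher was thus not above that of all genes, and the rise is a result on LHCA4 alone. Of the 5 genes of the minor photosystem II antenna 3 fell, and of the 5 genes of the photosystem I antenna 1 fell and 1 rose. The summed signal of 5 leaf mesophyll markers was 70005 to 105126 in control libraries and 33919, 101798 and 97060.1 after Mg removal, lowest in Mg-deficient library 1; its part in the antenna values was not tested.

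LHCB4.1 and LHCB4.2 encode the same antenna protein, CP29, at the edge of the photosystem II core. LHCB4.1 had signals of 2920.2, 4677, 2404, 4119.9 and 3666 in control and 952, 1292 and 1527 in Mg-deficient plants (-1.49 ± 0.29 SE in log2, adjusted p = 0.0046). LHCB4.2 had 583, 1041, 506, 771 and 635 in control and 131, 388 and 302 in Mg-deficient plants (-1.46 ± 0.36 SE in log2, adjusted p = 0.014). All 3 Mg-deficient libraries were below all 5 control libraries for both genes, as for 6 of the 10 antenna genes and 17.8% of all genes. LHCB6, whose protein CP24 joins CP29 to an LHCII trimer, had 3120.3, 3435, 3061, 3325 and 3421 in control and 532, 1792 and 1846 in Mg-deficient plants (-1.44 ± 0.38 SE in log2, adjusted p = 0.02). The control values of LHCB6 lay close together, and Mg-deficient library 1 was far below the other two. LHCB4.3 had 114, 118, 169, 149 and 139 in control and 12.01, 81.5 and 93.7 in Mg-deficient plants, groups that did not overlap, but it missed the threshold (-1.56 ± 0.56 SE in log2, adjusted p = 0.058) and was called when any 1 of the 3 Mg-deficient libraries was left out (-0.64, -1.97 and -2.07 in log2 without library 1, 2 and 3, with adjusted p = 0.048, 0.041 and 0.024), with a pseudocount of 5 (adjusted p = 0.041) and under voom (adjusted p = 0.048). LHCB5 overlapped between the groups (-0.50 ± 0.26 SE in log2, adjusted p = 0.17).

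Among the photosystem I antenna genes LHCA4 and LHCA6 moved apart on day 5. LHCA4, whose protein, with that of LHCA3, holds far-red absorbing chlorophylls of the belt, had signals of 1747, 2073, 2661, 1894 and 1597 in control and 3116, 4296 and 4109.8 in Mg-deficient plants (0.95 ± 0.26 SE in log2, adjusted p = 0.021). All 3 Mg-deficient libraries were above all 5 control libraries, as for 16.1% of all genes. LHCA6 had 398, 433, 539, 443 and 402 in control and 42.7, 166 and 232 in Mg-deficient plants (-1.89 ± 0.45 SE in log2, adjusted p = 0.012), with no overlap in the other direction. LHCA1, the partner of LHCA4 in the belt, was at 1190.5 ± 137 (SD, n = 5) in control plants against 1285 ± 274 (n = 3) after Mg removal, with a log2 fold change of 0.09 and a 95% interval of -0.40 to 0.59. LHCA3 was at 2706 ± 392 (SD, n = 5) and 2484 ± 236 (n = 3) (log2 fold change -0.12, 95% interval -0.64 to 0.41), and its sign turned with the median of ratios (0.19). LHCA2 had Mg-deficient libraries below all controls but missed the threshold (-0.66 ± 0.26 SE in log2, adjusted p = 0.082).

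The rise of LHCA4 was a call that single libraries decided. Leaving out control library 1, 4 or 5 gave adjusted p = 0.061, 0.059 and 0.058, and leaving out Mg-deficient library 2 gave 0.053, with log2 fold changes of 0.87 to 0.94. Without Mg-deficient library 1, the library with few detected genes, 5 genes were called lower and LHCA4 was called higher. The falls of LHCB4.1, LHCB4.2, LHCB6 and LHCA6 held without each of the 8 libraries in turn. Those of LHCB4.2, LHCB6 and LHCA6 were smaller without Mg-deficient library 1, at -0.997, -0.85 and -1.16, as was the value of LHCB4.3 (-0.64). Over all alternatives the adjusted p of LHCB4.2 reached 0.0498.

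**Figure D1:**
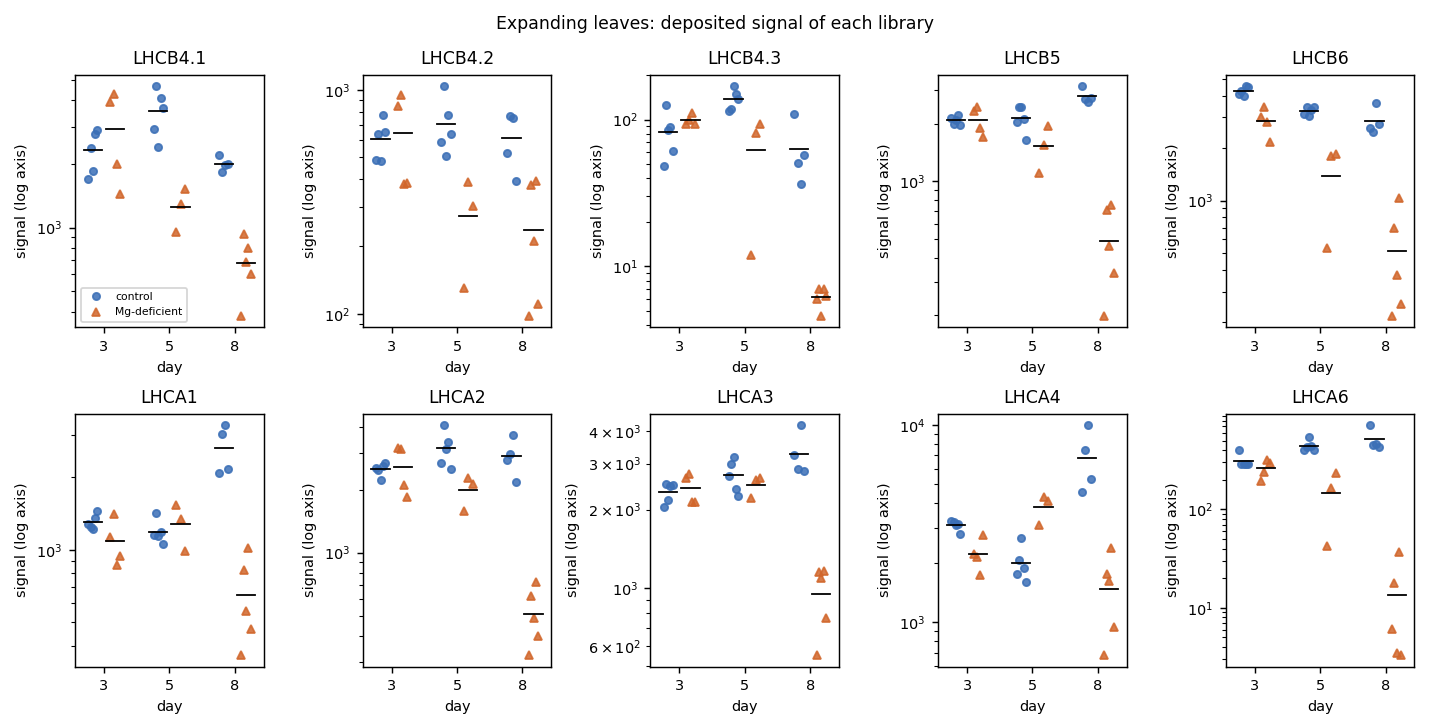
Deposited signal (log axis) of the 10 antenna genes in each library of expanding leaves, by day of treatment; each point is 1 library, circles are control and triangles Mg-deficient plants, and black lines are group means. On day 5 the Mg-deficient libraries of LHCB6 lie at or below 1846 and those of LHCA4 at or above 3116, and on day 8 the Mg-deficient libraries lie below all control libraries for 9 of 10 genes.

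By day 8 all 10 genes had fallen in expanding leaves, where 14.9% of the 15523 genes tested were called lower and 30.8% higher. The falls ran from -1.53 (LHCB4.2) to -5.67 (LHCA6) on the log2 scale, with a median of -2.40 beside 0.63 over all genes. The groups were fully apart in 9 of the 10 genes, as for 12.9% of all genes in this direction, LHCB4.2 being the exception. The genes took 1.39 ± 0.358% of the reads in control libraries and 0.276 ± 0.118% in Mg-deficient libraries. The summed signal of 5 leaf mesophyll markers was 59901 to 73665 in control libraries against 13016 to 22764 after Mg removal, and its part in the antenna values was not tested. In a bulk sample fewer cells of a type and less RNA per cell cannot be told apart.

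The minor photosystem II antenna fell as a whole on day 8. LHCB5, the gene of CP26, had signals of 3148, 2693, 2602 and 2732 in control and 199, 709, 460.5, 755 and 334 in Mg-deficient plants (-2.66 ± 0.34 SE in log2, adjusted p = 4.5e-05). LHCB6 had 2607, 2457, 3646 and 2735 in control and 218, 694, 375, 1036 and 255 in Mg-deficient plants (-2.71 ± 0.40 SE in log2, adjusted p = 1.4e-04). On the fitted scale these genes, each the single gene of its protein, were 6.33- and 6.53-fold lower. LHCB4.1 went from 2002 ± 149.6 (SD, n = 4) to 681 ± 207 (n = 5) (-1.61 ± 0.23 SE in log2, adjusted p = 1.3e-04), and LHCB4.2 from 607 ± 181 (SD, n = 4) to 238 ± 141 (n = 5) (-1.53 ± 0.42 SE in log2, adjusted p = 0.01). The call of LHCB4.2 was lost with array weights (log2 fold change -1.47, adjusted p = 0.084). LHCB4.3, the lowest of the 3 LHCB4 genes, had 109, 50.4, 36.6 and 57.5 in control and 6.002, 6.98, 4.61, 7.06 and 6.24 in Mg-deficient plants (-3.06 ± 0.48 SE in log2, adjusted p = 2.3e-04), the latter values standing for 6 to 8 reads per library.

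The photosystem I antenna fell on day 8 too, LHCA6 most. LHCA6 had signals of 717, 454, 460.1 and 433 in control and 6.003, 17.9, 3.43, 37.0 and 3.30 in Mg-deficient plants (-5.67 ± 0.60 SE in log2, adjusted p = 1.2e-05), a fitted ratio of 51.0. These values stand for 640, 477, 395 and 332 reads in the control and 6, 18, 5, 41 and 4 reads in the Mg-deficient libraries, so that the remaining level was near the limit of detection in 3 of 5 libraries. LHCA4, the gene that had risen on day 5, had 4549.9, 7442, 9952 and 5291 in control and 682, 1758, 1619, 2389 and 949 in Mg-deficient plants (-2.27 ± 0.35 SE in log2, adjusted p = 2.0e-04). Its control libraries spread over a range of more than 2-fold, and even the lowest of them exceeded the highest Mg-deficient library. LHCA2 fell from 2891 ± 615 (SD, n = 4) to 511 ± 161 (n = 5) (-2.53 ± 0.25 SE in log2, adjusted p = 6.7e-06). LHCA1 (-2.09 ± 0.29 SE in log2, adjusted p = 8.9e-05) and LHCA3 (-1.83 ± 0.24 SE in log2, adjusted p = 6.3e-05) fell as well. A stretch of LHCA2 (138 of its 1359 windows of 50 bases) occurs elsewhere in the genome as well, at AT5G28450 among others, so that some of its reads could have been placed there.

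Mature leaves were also measured at each time. On days 3 and 5, 0 of the 10 genes were called by limma, where 0% of the 15079 and 0% of the 15243 genes tested were called in either direction. At an unadjusted p under 0.05 these tables had 1 gene lower on day 3 (LHCA4, background 2.02%) and 1 higher on day 5 (LHCB4.2, background 2.52%), and voom called 0 of 10 in both. On day 3, LHCA4 had 2372, 2585, 2370.1 and 2582 in control and 1605, 1958 and 1593 in Mg-deficient plants (-0.53 ± 0.19 SE in log2, adjusted p = 0.98). The groups did not overlap, as for 2.66% of all genes. On day 5 all 10 log2 fold changes were above 0, from 0.07 (LHCB6) to 0.75 (LHCB4.3), with a median of 0.38 beside -0.02 over all genes, and LHCB6 turned negative without control library 5 (-0.02) or Mg-deficient library 1 (-0.07). LHCB4.2 had 512, 522, 509, 349 and 406 in control and 978, 661 and 677 in Mg-deficient plants (0.74 ± 0.22 SE in log2, adjusted p = 0.56). It was 1 of 4 genes, with LHCB5, LHCA1 and LHCA3, whose Mg-deficient libraries all lay above the controls, as for 2.24% of all genes.

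On day 8, LHCA6 was the member called in mature leaves: 1 of 10 was lower, where 0.173% of the 13314 genes tested were, and 0 of 10 were higher, where 3.43% were. LHCA6 had signals of 254, 217, 249 and 256 in control and 109, 90.3, 59.3 and 50.2 in Mg-deficient plants (-1.71 ± 0.49 SE in log2, adjusted p = 0.047). No library overlapped, as for 1.25% of all genes, and the 4 control libraries lay close together although they differed in detected genes. The call was near the threshold: it was lost without any 1 library except control library 1, with adjusted p from 0.054 to 0.16, and without the filter on low signals (adjusted p = 0.085). The other 9 genes had log2 fold changes from -0.16 (LHCB5) to 0.61 (LHCB4.2). The 95% intervals were -0.12 to 0.72 for LHCA4, -0.54 to 0.55 for LHCB6 and -0.40 to 0.74 for LHCA2. With the median of ratios the 10 genes ranged from -3.50 to -1.19. Of them 2 were called lower, LHCA6 and LHCB5 (adjusted p = 0.034), where 480 of 12522 genes were called lower. In contrast, voom called LHCA4 higher (0.49, adjusted p = 0.042), 1 of 10, where 749 of 13314 genes were called higher. Against control library 1 alone the log2 fold change of LHCA6 was -1.77. LHCB4.3 could not be placed, since its control signals of 47.0, 1.76, 2.02 and 169 stand for 69, 0, 0 and 165 reads.

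Roots on day 3 held few reads of these genes. Of the 9 genes listed there, 4 had a mean signal of at least 5 (LHCB4.1, LHCB6, LHCA3 and LHCA4) and 0 of 4 were called by limma, 0 at an unadjusted p under 0.05 (background 6.12% lower and 4.81% higher) and 0 by voom, where 0.112% of the 16905 genes tested were called lower and 0.0887% higher. Signals of LHCA4 were 11.97 to 30.0 (median 14.7) in the 6 control libraries and 12.5, 10.3 and 18.7 in Mg-deficient plants (-0.27 ± 0.36 SE in log2, adjusted p = 0.82). Control library 3 was the highest of the controls for LHCB5, LHCB6, LHCA2, LHCA3, LHCA4 and LHCA6. In it the summed signal of 5 leaf mesophyll markers was 739, against 127 to 202 in the other 5 controls and 118 to 212 after Mg removal; its part in these values was not tested. All 10 root markers were present in roots, with summed signals of 1071 to 1318.

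**Figure D2:**
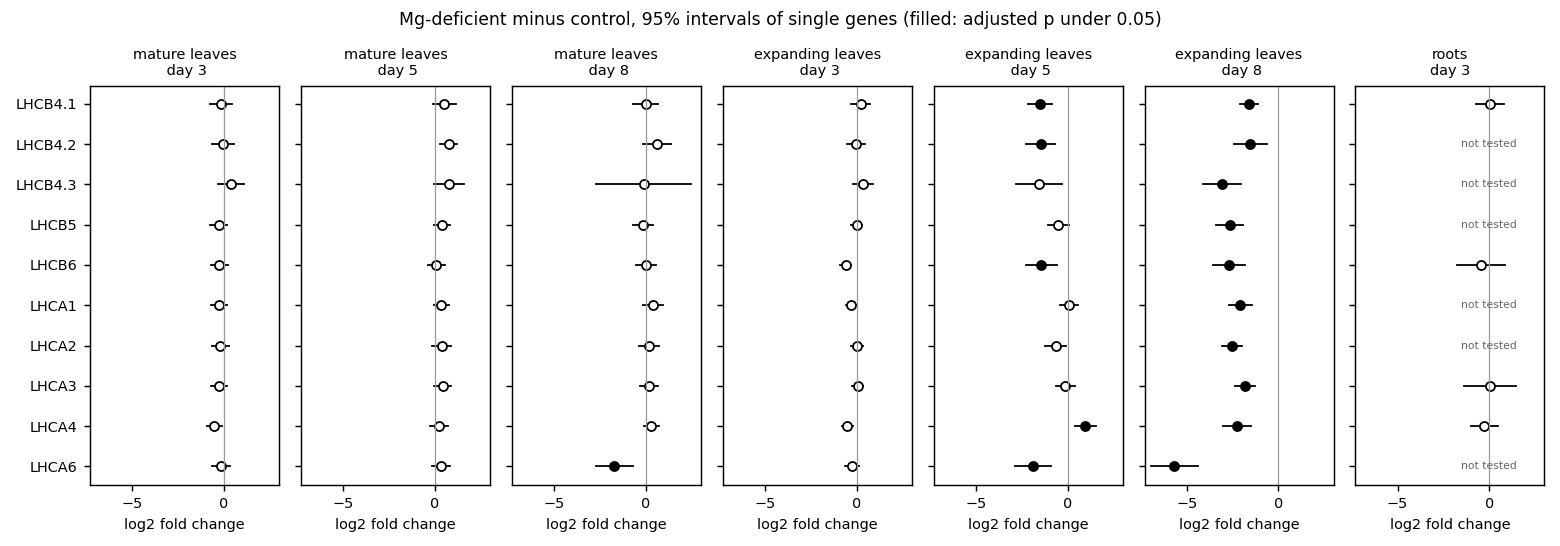
Log2 fold change of each antenna gene, Mg-deficient minus control, in the 7 tables; points are limma estimates, lines their 95% intervals, and filled points passed an adjusted p under 0.05. Filled points stand at 0 of 10 genes in expanding leaves on day 3, 5 on day 5 and 10 on day 8, and at LHCA6 alone in mature leaves on day 8.

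The response was then compared between tissues and between days, as the difference of 2 log2 fold changes over their joint SE. On day 3 no difference between expanding and mature leaves was called among the 10 genes (0 called and 0 at an unadjusted p under 0.05, where 0% of 14238 genes were called, and 0 under voom). On day 5 the response was lower in expanding leaves for 6 of 10 genes, where 10.8% of 14522 genes were called lower and 9.96% higher. LHCB4.2 differed by -2.20 (SE 0.42, adjusted p = 0.0014), LHCA6 by -2.21 (SE 0.51, adjusted p = 0.0062) and LHCB4.1 by -1.999 (SE 0.41, adjusted p = 0.0013). LHCB4.3, LHCB6 and LHCA2 were the other 3 genes, at -2.31, -1.51 and -1.02. The difference for LHCA4 was 0.74 (SE 0.35, adjusted p = 0.13) and was not called, except with the median of ratios. On day 8, 9 of 10 genes had a lower response in expanding leaves, where 4.29% of 12956 genes were called lower and 1.66% higher, with LHCA6 at -3.96 (SE 0.78, adjusted p = 0.0017), LHCB6 at -2.71 (SE 0.48, adjusted p = 8.4e-04) and LHCA2 at -2.70 (SE 0.37, adjusted p = 7.7e-06). With the median of ratios, which moves the mature leaf values of day 8 downwards, 0 of 10 genes had a lower response.

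In expanding leaves the response was also compared between days. From day 3 to day 5 the response became lower for LHCB4.1, LHCB4.2, LHCB4.3 and LHCA6 (4 of 10, where 10.5% of 14568 genes were called lower) and higher for LHCA4 (1 of 10, where 7.41% were called higher). LHCA4 changed by 1.46 (SE 0.30, adjusted p = 0.0031) and LHCB4.1 by -1.70 (SE 0.38, adjusted p = 0.0036). The 4 lower responses were reduced to 1 or 2 when any 1 control library of day 5, or Mg-deficient library 2 of day 3, was left out. From day 5 to day 8 the response became lower for 6 of 10 genes, LHCB5 and the 5 photosystem I genes, where 3.53% of 14584 genes were called lower and 13.2% higher. LHCA6 changed by -3.79 (SE 0.75, adjusted p = 0.002), LHCA4 by -3.23 (SE 0.44, adjusted p = 9.8e-05) and LHCA1 by -2.19 (SE 0.37, adjusted p = 5.6e-04). The 3 LHCB4 genes and LHCB6 were not called between these days, LHCB4.1 by -0.13 (SE 0.37, adjusted p = 0.84) and LHCB6 by -1.27 (SE 0.55, adjusted p = 0.11). From day 3 to day 8 the response became lower for 10 of 10 genes, where 12.6% of 14001 genes were called lower and 20.3% higher.

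In mature leaves, 0 of 10 responses were called different between days 3 and 5, where 0% of 14453 genes were called, and voom called 0. The differences of the 10 genes ran from 0.32 (LHCB6) to 0.82 (LHCB4.2) in log2, each with an adjusted p of 0.85 or above. Between days 5 and 8, the response of LHCA6 changed by -2.03 (SE 0.55, adjusted p = 0.038), 1 of 10 where 0.0542% of 12915 genes were called lower and 2.08% higher, a call that was lost without the filter on low signals, and when any 1 of 7 libraries was left out (from day 8 control 4 and Mg-deficient 3 and 4, from day 5 control 4 and 5 and Mg-deficient 2 and 3). Between roots and expanding leaves on day 3 no difference was called for the 4 genes tested in both (0 called by limma and by voom, 0 at an unadjusted p under 0.05, where 0.0073% of 13698 genes were called lower and 0% higher).

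Ratios of 2 genes within a library do not depend on a factor common to its genes. The authors' adjustment of the signal differed by gene, so the ratios are not free of it. They were taken for 3 pairs chosen after the values were seen, as a description. On day 5, in expanding leaves, the log2 ratio of LHCB6 to LHCA4 was 0.84, 0.73, 0.20, 0.81 and 1.099 in control and -2.55, -1.26 and -1.15 in Mg-deficient plants. The highest Mg-deficient library was below the lowest control library. In the other 5 leaf tables the 2 groups overlapped for this ratio. The mean of the controls of expanding leaves was 0.45 ± 0.15 (SD, n = 5) on day 3, 0.74 ± 0.33 (n = 5) on day 5 and -1.20 ± 0.38 (n = 4) on day 8.

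The log2 ratio of LHCA6 to LHCA1 separated the groups in 3 tables. In mature leaves on day 8 it was -2.01, -2.09, -2.31 and -2.28 in control and -4.23, -3.18, -4.95 and -4.78 in Mg-deficient plants, in which LHCA6 was thus low against another photosystem I antenna gene of the same library. For day 8 of expanding leaves it was -1.53, -2.73, -2.84 and -2.32 in control and -5.93, -5.52, -7.35, -4.79 and -7.15 in Mg-deficient plants. It also separated the groups in expanding leaves on day 5, at -1.43 ± 0.23 (SD, n = 5) and -3.42 ± 1.58 (n = 3). The ratio of LHCA4 to LHCA1, the pair that sits side by side in the belt, overlapped between the groups in all 6 leaf tables, and on day 5 in expanding leaves was 0.73 ± 0.28 in control and 1.59 ± 0.52 in Mg-deficient plants.

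**Figure D3:**
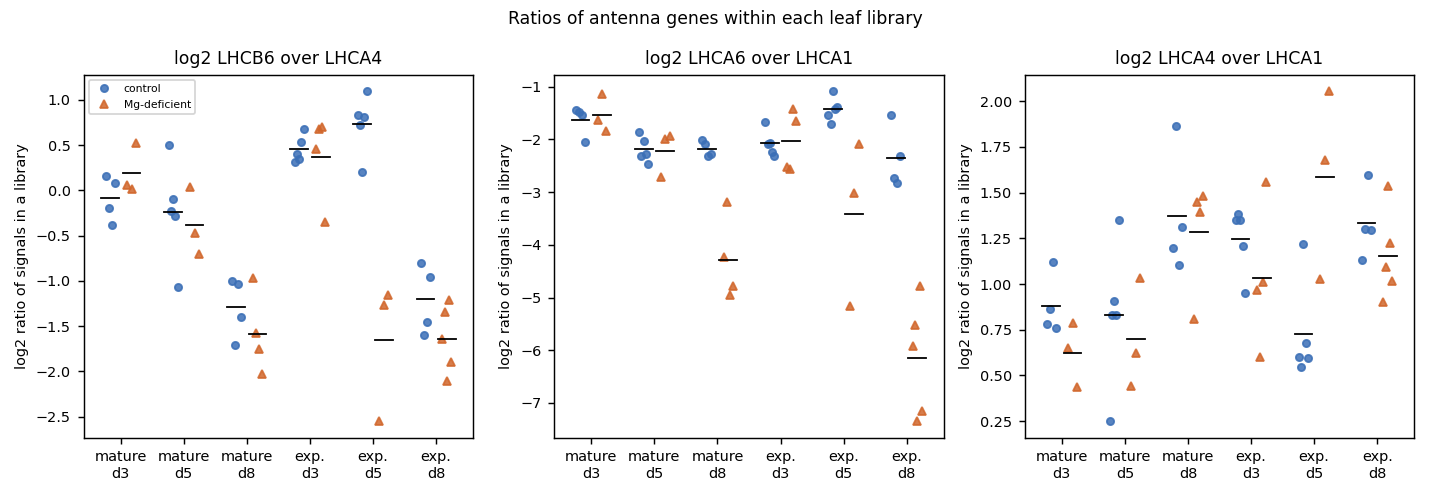
Log2 ratio of the signals of 2 antenna genes in each leaf library (y axes), by tissue (exp., expanding leaves) and day (x axes); circles are control and triangles Mg-deficient libraries, and black lines are group means. LHCB6 over LHCA4 separates the groups in expanding leaves on day 5, LHCA6 over LHCA1 in expanding leaves on days 5 and 8 and in mature leaves on day 8, and LHCA4 over LHCA1 in no table.

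Genes that act with the antenna were read from lists of known function, whose counts stand against 14.8% of all genes called lower and 13.7% higher on day 5 and 14.9% and 30.8% on day 8. On day 5 in expanding leaves, the LHCII trimer genes, which encode the major antenna of photosystem II, did not share the direction of the minor antenna: 4 of 9 rose and 0 fell, with a median log2 fold change of 0.75, against 3 of 5 fallen and a median of -1.46 for the minor antenna and -0.12 for the photosystem I antenna. LHCB1.1 rose from 402 ± 84.4 (SD, n = 5) to 10172 ± 3548 (n = 3; log2 fold change 4.61, adjusted p = 6.2e-06), LHCB2.1 from 387 ± 44.1 (SD, n = 5) to 773 ± 127 (n = 3; log2 fold change 0.99, adjusted p = 0.0057) and LHCB3 from 828 ± 67.2 (SD, n = 5) to 1400.0 ± 233 (n = 3; log2 fold change 0.75, adjusted p = 0.021). LHCB1.2, named after its values were seen, was the fourth that rose (1.04, adjusted p = 0.05). Reads of LHCB1.1 and its near-identical neighbours LHCB1.2 and LHCB1.3 may have been split between them. On day 3, LHCB1.1 was the 1 of 9 that fell (-1.11, adjusted p = 0.0035). On day 8, 5 of 9 fell and 1 rose (LHCB1.1, 0.85, adjusted p = 0.049), with a median of -1.04; LHCB1.5 (-1.65, adjusted p = 7.9e-05), LHCB1.3 (-2.02, adjusted p = 2.1e-04) and LHCB3 (-1.79, adjusted p = 0.0024) fell.

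Many genes of the core subunits around which the antenna is built fell as well. On day 5, 7 of 12 photosystem I core genes and 8 of 10 photosystem II core genes fell and none rose, with medians of -1.04 and -1.18. Subunit H, the docking side of photosystem I for LHCII, fell in PSAH2 (-1.74, adjusted p = 0.002) and PSAH1 (-1.03, adjusted p = 0.0079), as did PSAD2 of the ferredoxin side (-1.31, adjusted p = 0.0062). PSBQ2 (-1.69, adjusted p = 0.0054) and PSBO1 (-1.22, adjusted p = 0.014) of the oxygen-evolving complex and PSBX, a small subunit (-1.21, adjusted p = 0.024), fell. On day 8, 12 of 12 and 10 of 10 fell (medians -2.38 and -2.65), the smallest p being those of PSAH1 (-2.80, adjusted p = 2.1e-06), PSAK (-2.93, adjusted p = 2.7e-06) and PSAN (-2.98, adjusted p = 7.6e-06) and of PSBR (-2.27, adjusted p = 1.5e-06), PSBY (-2.52, adjusted p = 3.7e-06) and PSBQ2 (-2.95, adjusted p = 5.9e-06). Of the same lists in mature leaves on day 8, 1 of 12 photosystem I core genes fell, PSAG (-0.62, adjusted p = 0.038), where 0.173% of all genes did. There 0 of 10 photosystem II core genes were called.

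Of other proteins of the LHC family, 4 of 7 tested fell in expanding leaves on day 5 and 5 of 8 on day 8, when 1 rose. LHCA5, which like LHCA6 links photosystem I to the NADH dehydrogenase-like complex, fell on day 5 (-1.69, adjusted p = 0.014) and day 8 (-2.90, adjusted p = 1.5e-05). PSBS, the sensor of excess light, fell on both days (-1.60, adjusted p = 0.0073 and -2.28, adjusted p = 7.7e-06), OHP1, a one-helix protein, on day 5 (-1.14, adjusted p = 0.0087) and LIL3.2, an LHC-like protein of chlorophyll synthesis, on day 8 (-2.65, adjusted p = 1.7e-05). The gene that rose on day 8 was ELIP1, of the early light-induced proteins, named after its values were seen: it was listed at 0 in all control libraries and at 107 ± 117 (SD, n = 5) in Mg-deficient plants. Of 5 genes that carry antenna proteins to the thylakoid and insert them, 1 fell on day 5 (LTD, -2.01, adjusted p = 0.0015), a share near the 14.8% of all genes, with a median of -0.57 beside -0.34 over all genes. On day 8, 4 of 5 fell, where 14.9% of all genes did, among them the insertase ALB3 (-1.69, adjusted p = 9.6e-05), LTD (-2.13, adjusted p = 1.6e-04) and cpSRP43 (-1.47, adjusted p = 0.0081).

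Of 6 regulators and kinases, 2 fell on day 5 and 3 on day 8, where 14.8% and 14.9% of all genes did, with medians of -0.90 and -0.85. The kinase STN8 of photosystem II fell on both days (-3.19, adjusted p = 0.013 and -3.24, adjusted p = 1.5e-04). GLK2 fell on day 5 (-2.82, adjusted p = 0.027) and GLK1 on day 8 (-1.41, adjusted p = 0.0014), 2 factors that activate antenna genes, and the phosphatase TAP38 fell on day 8 (-1.66, adjusted p = 9.9e-04). Of 4 genes of the chlorophyll b cycle, by which chlorophyll b, the other pigment of the antenna, is made and returned to chlorophyll a, 2 fell on both days, NYC1 (-0.93, adjusted p = 0.0096 and -1.14, adjusted p = 0.0033) and HCAR (-2.28, adjusted p = 0.025 and -1.81, adjusted p = 0.011).

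**Figure D4:**
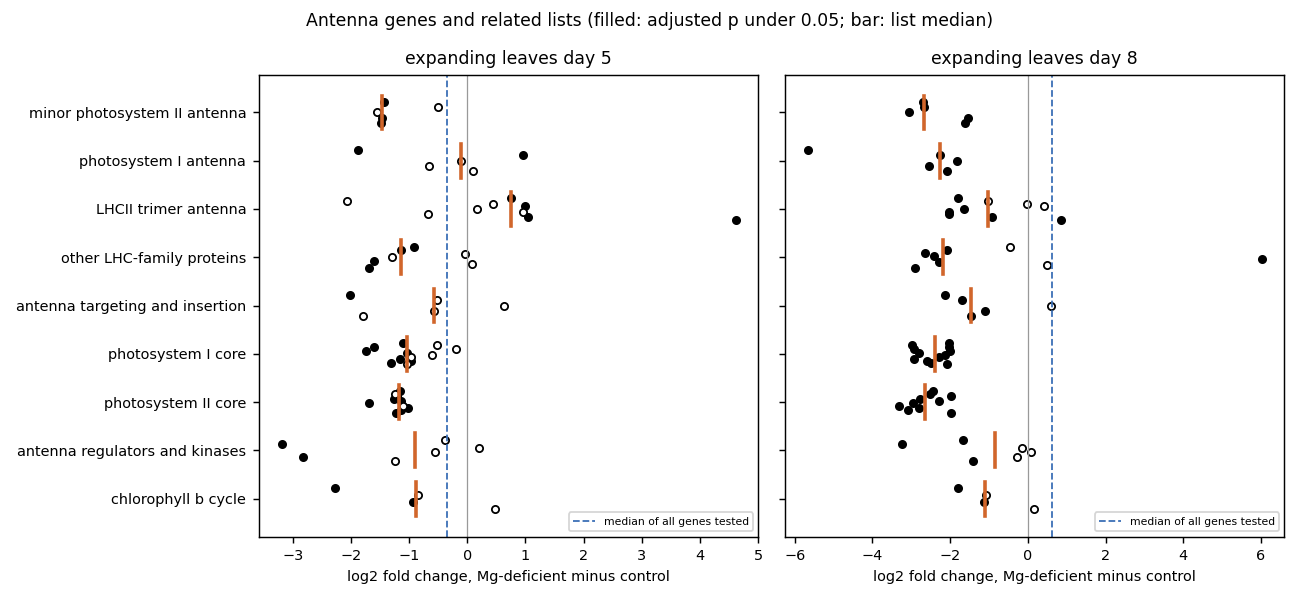
Log2 fold change (x axis) of each gene of the antenna and related lists (y axis) in expanding leaves on days 5 and 8; filled points passed an adjusted p under 0.05, orange bars are list medians and the dashed line is the median of all genes tested. On day 5 the minor antenna (median -1.46) and the LHCII trimer genes (median 0.75) lie on opposite sides of 0, and on day 8 both lie below 0 (medians -2.66 and -1.04).

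Of the leaf cell markers in expanding leaves, 3 of 5 of the mesophyll were called lower on day 5 and 5 of 5 on day 8. Over all genes tested, 14.8% and 14.9% were called lower on these days. All 5 were below 0 on day 5, the highest at -0.12. In expanding leaves on day 8 all 5 mesophyll markers fell, and CA1 (-4.67, adjusted p = 2.2e-06), RBCS1B (-3.58, adjusted p = 1.6e-05) and GAPA2 (-3.14, adjusted p = 2.5e-05) had the smallest p. On day 5, 3 of 5 fell (CA1, -1.99, adjusted p = 0.008; GAPA2, -1.31, adjusted p = 0.015; RBCS1B, -1.57, adjusted p = 0.018). Vascular markers were called for 0 of 6 on day 5 and fell for 2 of 5 on day 8, SUC2 (-1.49, adjusted p = 7.9e-05) and AHA3 (-1.59, adjusted p = 2.2e-04), both of phloem companion cells. The other 3 had values above 0 and were not called, APL (0.25, adjusted p = 0.60), ATHB8 (0.62, adjusted p = 0.58) and XCP1 (2.13, adjusted p = 0.054), and the median of the 5 was 0.25. Guard cell markers were called for 0 of 3 on either day. In mature leaves on day 8, 1 of 5 mesophyll markers fell, RBCS1A (-0.52, adjusted p = 0.028), where 0.173% of all genes did. There 0 of 4 vascular and 0 of 3 guard cell markers were called. Of 10 root markers at most 2 were listed in any leaf table, and in every leaf library their summed signal was at most 16.8. The part of any of these in the antenna values was not tested.

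Over the 49 leaf libraries, each gene's log2 signal was centred on the controls of its table and set against the mean of the 10 antenna genes. Among the other genes of the 6640 compared, PSAN of photosystem I (Pearson r = 0.979), PSBP-1 of the oxygen-evolving complex (0.978), PSBTN of photosystem II (0.972), RBCS1B of Rubisco (0.972) and PSAF of photosystem I (0.971) were closest to that mean. Of the antenna genes themselves, LHCA2 (0.981) and LHCB5 (0.977) were closest and LHCB4.3 (0.780) and LHCA4 (0.781) farthest, each being part of the mean. The libraries share tables and scaling, and these values are a description.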

How the data were processed

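RNA of leaves and roots was sequenced with strand-specific single-end reads of 50 bases. After mapping to TAIR10 and counting over genes, the authors deposited a normalised signal, which matches an adjustment of counts to a common library size per table with a dispersion of 0.05 in R 3.5.0. The adjustment was undone to recover whole reads (93.2 to 100% of values per library matched within 0.001); these served as depth and for voom, as an alternative. Signals were compared as log2(signal + 1) with limma 3.58.1 in R 4.3.3 (moderated test, intensity trend), where a gene's signal averaged 5 or more, Benjamini-Hochberg adjusted over all genes of a table, and called at an adjusted p under 0.05. A log2 fold change on this scale understates changes of low genes. Responses of 2 tables were compared by the difference of log2 fold changes over the joint SE, with Welch-Satterthwaite degrees of freedom. The deposited values were not counts, so limma was used in place of a count test. The script was tested on simulated data. From each related list the called genes with the smallest p, at most 3 per table, were named. The members and lists were chosen with earlier results of these data known. Replicates were separate composites of plants, and whether tissues came from the same plants is not given in the sources used here. The alternatives were other pseudocounts (0.25 and 5), no filter or a minimum of 20, median-of-ratios scaling, voom, array weights, a replicate block and leaving out each library; those against control library 1 of mature leaves on day 8 alone and the ratios within a library were added after seeing the data.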

Additional observations from a re-analysis of the deposited data

Results flagged for a closer look

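Of 99 groups of 4 to 6 libraries examined, 8 had 1 library far from the others by Dixon's criterion at 95%, which chance gives in about 1 in 20 groups. LHCB5 was low in control library 3 of mature leaves on day 3 (signal 1576, next lowest 2076). LHCA6 was set apart in 3 leaf groups: low in control library 2 of mature leaves on day 8 (217, next lowest 249), high in control library 1 of expanding leaves on day 3 (405, next highest 293) and high in control library 1 of expanding leaves on day 8 (717, next highest 460.1). The other 4 were all control library 3 of roots, at 14.8 for LHCB5, 29.6 for LHCB6, 30.0 for LHCA4 and 3.13 for LHCA6, the library with the high sum of mesophyll markers.

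The response to Mg deficiency differed by the test of the difference itself for 6 of 10 genes between expanding and mature leaves on day 5 and for 9 on day 8. Over all genes, 10.8% were called lower and 9.96% higher on day 5, and 4.29% and 1.66% on day 8. With median-of-ratios scaling 0 of 10 genes had a lower response on day 8. Within expanding leaves the response differed for 5 genes between days 3 and 5, for 6 between days 5 and 8, and for 10 between days 3 and 8. The shares of all genes called lower and higher were 10.5% and 7.41%, 3.53% and 13.2%, and 12.6% and 20.3%. The lower calls between days 3 and 5 numbered 1 to 4 when 1 library was left out. Within mature leaves the response differed for 1 gene, LHCA6, between days 5 and 8, where 0.0542% of all genes were called lower and 2.08% higher. These lower calls numbered 0 to 1 when 1 library was left out.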

How the results depend on the processing

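All 10 falls in expanding leaves on day 8 were called under each alternative except array weights, which lost LHCB4.2, and with each library left out. A pseudocount of 5 and a minimum of 20 changed no count of calls beyond 1.5 times and turned no direction. Depth limits LHCB4.3 in all tables, LHCA6 in Mg-deficient expanding leaves on day 8 and all members in roots, where few reads stand behind a value. Where values below moved, the cause was not tested.

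Median-of-ratios scaling called 2 genes lower in mature leaves on day 8, where it called 480 of 12522 genes lower. The median over the members was -1.64 there. In that table LHCB4.2 (-1.19), LHCB6 (-1.80), LHCA1 (-1.42), LHCA2 (-1.63), LHCA3 (-1.65) and LHCA4 (-1.50) turned. The scaling also turned LHCA3 in expanding leaves on day 5 (0.19). It gave 1 higher response of expanding against mature leaves on day 5 (LHCA4), 0 lower on day 8, and 4 lower in mature leaves on day 8 against day 5 (LHCB4.1, LHCB5, LHCA3 and LHCA6). Without a filter, 0 genes were lower in mature leaves on day 8 and 0 responses were lower there against day 5. A pseudocount of 0.25 turned LHCB4.3 in mature leaves on day 8 (0.011) and LHCA3 in roots (-0.0033). With voom, 1 gene was higher in mature leaves on day 8, where 749 of 13314 genes were. In expanding leaves on day 3, 1 was lower, where 11 of 15272 genes were. Signs turned under voom for LHCB4.3 in mature leaves on day 8 (0.81). They also turned for LHCB4.2 (0.015), LHCB5 (0.00071) and LHCA2 (0.019) in expanding leaves on day 3 and for LHCB4.1 (-0.0011) and LHCA3 (-0.083) in roots. With array weights, 2 genes were lower in expanding leaves on day 3, where 155 of 15272 genes were. In that table LHCB4.2 (0.24), LHCB5 (0.10) and LHCA2 (0.18) turned, as did LHCB4.1 (0.11) and LHCB4.3 (0.046) in mature leaves on day 8. Against control library 1 alone, 0 genes were lower in mature leaves on day 8, and LHCB5 (0.052) and LHCB6 (-0.0023) turned.

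Samples with the same replicate number did not deviate together: of 24 pairs 2 had a correlation over 0.1 (range -0.153 to 0.231), and 3 libraries correlated best with their own number. With the replicate number as a block, 0 genes were higher and 2 lower in expanding leaves on day 5 (LHCB4.2 and LHCA6), LHCB4.1, LHCB6 and LHCA4 having adjusted p = 0.10, 0.11 and 0.30, and lower responses numbered 3 for expanding against mature leaves on day 5, 0 (and 0 higher) for expanding leaves on day 5 against day 3, 3 for day 8 against day 5 and 0 for mature leaves on day 8 against day 5. The block turned LHCB6 in mature leaves on day 5 (-0.14), LHCB4.2 (0.012) and LHCA2 (0.021) in expanding leaves on day 3, and LHCB4.1 (-0.035) and LHCA3 (-0.52) in roots.

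Leaving out 1 library gave these ranges. In mature leaves on day 3, LHCB4.1 ranged from -0.59 to 0.20 and LHCB4.2 from -0.29 to 0.34, and on day 5 LHCB6 from -0.074 to 0.20. In mature leaves on day 8, 0 to 1 genes were lower, the median ranged from -0.091 to 0.33, LHCB4.1 from -0.45 to 0.33, LHCB4.3 from -0.97 to 1.01, LHCB5 from -0.45 to 0.017, LHCB6 from -0.21 to 0.22, LHCA2 from -0.035 to 0.34 and LHCA3 from -0.0038 to 0.38. In expanding leaves on day 3, 0 to 1 genes were lower, LHCB4.1 ranged from -0.020 to 0.51, LHCB4.2 from -0.25 to 0.19, LHCB5 from -0.092 to 0.084, LHCA2 from -0.12 to 0.14 and LHCA3 from -0.019 to 0.10. In expanding leaves on day 5, 0 to 1 genes were higher and LHCA1 ranged from -0.042 to 0.27. In roots, LHCB4.1 ranged from -0.32 to 0.38, LHCB6 from -0.92 to 0.31 and LHCA3 from -0.40 to 0.72. Lower responses numbered 1 to 4 for expanding leaves on day 5 against day 3 and 0 to 1 for mature leaves on day 8 against day 5.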
